A study of Mus musculus with 18 samples.

Results

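F13a1, Eef1a2, Cyp1b1, Asb2, Ifitm1 and Mtus1 are 6 genes that differed several-fold between WT and IRF5 KO bone marrow-derived macrophages (BMDMs) at rest. They were selected on the unstimulated libraries, by symbol, from the 50600 gene IDs of the count table, and all 6 were among the 15663 genes with enough counts to be tested. The samples were 18 libraries of mouse BMDMs grown with GM-CSF for 8 days, in 6 groups of 3. WT and IRF5 KO cells were left unstimulated, or were given LPS at 100 ng/ml for 2 h after 1 h with either DMSO (the group LPS DMSO) or 3.5 μM defactinib (the group LPS defactinib), an inhibitor of the kinases FAK and PYK2. The labels put the unstimulated libraries under DMSO and the column headers mark them as untreated, so whether they had the vehicle is not settled. The WT animals were C57BL/6J mice. How the IRF5 KO line was made is not given in the sources used here, nor whether the resting and the LPS libraries of a genotype came from the same animals. Labels number the replicates and do not name the animals, and the study describes its replicates in general as biological, such as mice or cells. The p-values below measure the spread between these libraries.

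IRF5 is a transcription factor that is activated downstream of Toll-like receptors, among them TLR4, the receptor for LPS, and it drives inflammatory cytokine genes in macrophages. GM-CSF gives BMDM cultures rich in IRF5, in which macrophages and dendritic cell-like cells grow side by side. The 6 genes belong to unrelated protein families. F13a1 encodes the catalytic A subunit of coagulation factor XIII, a transglutaminase that macrophages and platelets make. Eef1a2 encodes the form of translation elongation factor 1 alpha that is otherwise typical of muscle and neurons. Cyp1b1 encodes a cytochrome P450 and is a target gene of the aryl hydrocarbon receptor. Asb2 encodes the substrate-binding subunit of a Cullin5 ubiquitin ligase that has filamins as substrates. Ifitm1 encodes a small membrane protein of the interferon-induced transmembrane family, and Mtus1 a protein that binds microtubules.

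The genes lie on 6 chromosomes of the mm10 build, and none of them on chromosome 6, where Irf5 is. F13a1 (ENSMUSG00000039109) spans chr13:36867178-37050244, Eef1a2 (ENSMUSG00000016349) chr2:181147653-181157014 and Cyp1b1 (ENSMUSG00000024087) chr17:79706953-79715041, all on the minus strand. Asb2 (ENSMUSG00000021200) spans chr12:103321142-103356001 and Mtus1 (ENSMUSG00000045636) chr8:40990914-41133726 on the minus strand, and Ifitm1 (ENSMUSG00000025491) chr7:140967221-140969825 on the plus strand. All are protein-coding, and the counts sum read pairs over their exons. None overlaps another gene on its own strand. F13a1, Asb2 and Mtus1 have antisense partners, and the pairs were counted by strand.

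Eef1a2 and Ifitm1 have close relatives with which they could share reads. The longest open frame of Eef1a2 was 80.1% identical to that of Eef1a1, with 23 bases as the longest identical run. Ifitm1 was 81% identical to Ifitm2 and 81.3% to Ifitm3, with identical runs of up to 40 and 64 bases. Only pairs that aligned to a single place were counted.

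RefSeq promoters (GRCm38.p6, 250 bases before the start) were found for 5 of the genes, all but Mtus1. Those shown are F13a1, as the gene highest in WT relative to IRF5 KO, and Cyp1b1 and Asb2, higher in IRF5 KO, because a searched motif occurs in them. Each is written 5′ to 3′ in the gene's direction, with the motif match in capitals.
F13a1: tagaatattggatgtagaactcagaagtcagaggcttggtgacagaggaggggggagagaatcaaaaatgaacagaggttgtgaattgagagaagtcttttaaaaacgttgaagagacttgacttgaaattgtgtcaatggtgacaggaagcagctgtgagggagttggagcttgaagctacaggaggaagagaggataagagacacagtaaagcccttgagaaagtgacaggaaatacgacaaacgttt
Cyp1b1: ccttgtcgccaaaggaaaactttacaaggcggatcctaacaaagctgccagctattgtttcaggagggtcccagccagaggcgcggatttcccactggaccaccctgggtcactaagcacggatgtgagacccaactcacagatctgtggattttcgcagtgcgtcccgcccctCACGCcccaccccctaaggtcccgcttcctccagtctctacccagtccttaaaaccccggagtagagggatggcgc
Asb2: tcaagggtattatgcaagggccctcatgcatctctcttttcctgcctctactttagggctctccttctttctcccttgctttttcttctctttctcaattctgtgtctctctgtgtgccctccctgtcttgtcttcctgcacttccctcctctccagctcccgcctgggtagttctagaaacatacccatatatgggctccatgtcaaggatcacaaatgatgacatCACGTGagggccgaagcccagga
They are chr13:37050245-37050494, chr17:79715062-79715311 and chr12:103356002-103356251, all on the minus strand. Each of 6 motifs was searched on both strands. The core of the xenobiotic response element, GCGTG, to which the aryl hydrocarbon receptor binds, begins 76 bases before the start of Cyp1b1 and is read there on the other strand, and 28.2% of the 32851 RefSeq promoters of this length hold it. The E-box CACGTG begins 23 bases before the start of Asb2 and occurs in 6.02% of promoters. The interferon-stimulated response element (ISRE, 2.98% of promoters), the PU.1 site GAGGAAGT (2.44%), the NF-kB site (0.356%) and the AP-1 site TGANTCA (6.75%) had no match in these 5 windows. The start of Ifitm1 in RefSeq is 855 bases downstream of the first base of its span in the count table, so its window lies within the span counted.

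Levels are given as CPM, counts relative to the library's normalised total, in the order of replicates 1, 2 and 3. The libraries held 39282181 to 61949143 counted pairs. Irf5, the targeted gene, was at 587, 606 and 650 CPM in WT unstimulated and at 335, 397 and 364 CPM in IRF5 KO unstimulated. After LPS with DMSO it was at 434, 475 and 443 CPM in WT and 435, 431 and 345 CPM in IRF5 KO. With defactinib it was at 213, 234 and 379 CPM in WT and 364, 392 and 353 CPM in IRF5 KO. Irf5 reads were thus plentiful in the libraries labelled IRF5 KO, and counts over the whole gene do not show which exons are missing, so they do not check the label.

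Libraries of 2 groups stood apart from their replicates. IRF5 KO LPS DMSO replicate 3 had 6.99 CPM of Egr1, an immediate-early gene, against 916 and 885 CPM in replicates 1 and 2, and 1141 CPM of Tnf against 2491 and 2495 CPM. Egr1 was at 10.7 to 16.9 CPM in WT LPS DMSO. Under defactinib it was at 385 to 539 CPM in WT and 747 to 896 CPM in IRF5 KO. By Egr1, replicate 3 was thus nearer the WT libraries given DMSO, and replicates 1 and 2 the defactinib libraries. Tnf in replicate 3 was above the 55.9 to 59.4 CPM of IRF5 KO unstimulated cells. Which of these libraries is the unusual one was not tested, so fits without replicate 3 are not taken as better. WT LPS defactinib replicate 3 had 379 CPM of Irf5 against 213 and 234 CPM, and 385 CPM of Egr1 against 538 and 539 CPM. Its Tnf, at 664 CPM, was near that of replicate 2 (723 CPM), with replicate 1 at 1067 CPM. For Cyp1b1 and Mtus1, replicate 2 of this group was the furthest from the others, at 0.313 and 2.55 CPM. The fits of the 6 genes were also made without IRF5 KO LPS DMSO replicate 3 and WT LPS defactinib replicate 3, called below the libraries that stood apart. Values of other genes and of lists include them. Of the lists of cell type markers, macrophage markers summed to 10747 to 20219 CPM over the 18 libraries, with Lyz2 at 7705 to 15899 CPM, and 11 of 13 lymphocyte markers stayed below 1 CPM in every library.

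At rest, the values that chose the genes, 2 were higher in WT and 4 in IRF5 KO. These gaps describe the selection and carry no test. Of all tested genes, 3.8% were called higher and 3.51% lower in WT at rest, where called means an FDR below 0.05 with more than a 2-fold change. By size of the resting gap, the genes ranked 10th (Cyp1b1), 14th (F13a1), 60th (Asb2), 75th (Eef1a2), 111th (Ifitm1) and 326th (Mtus1) of 15663.

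**Figure D1:**
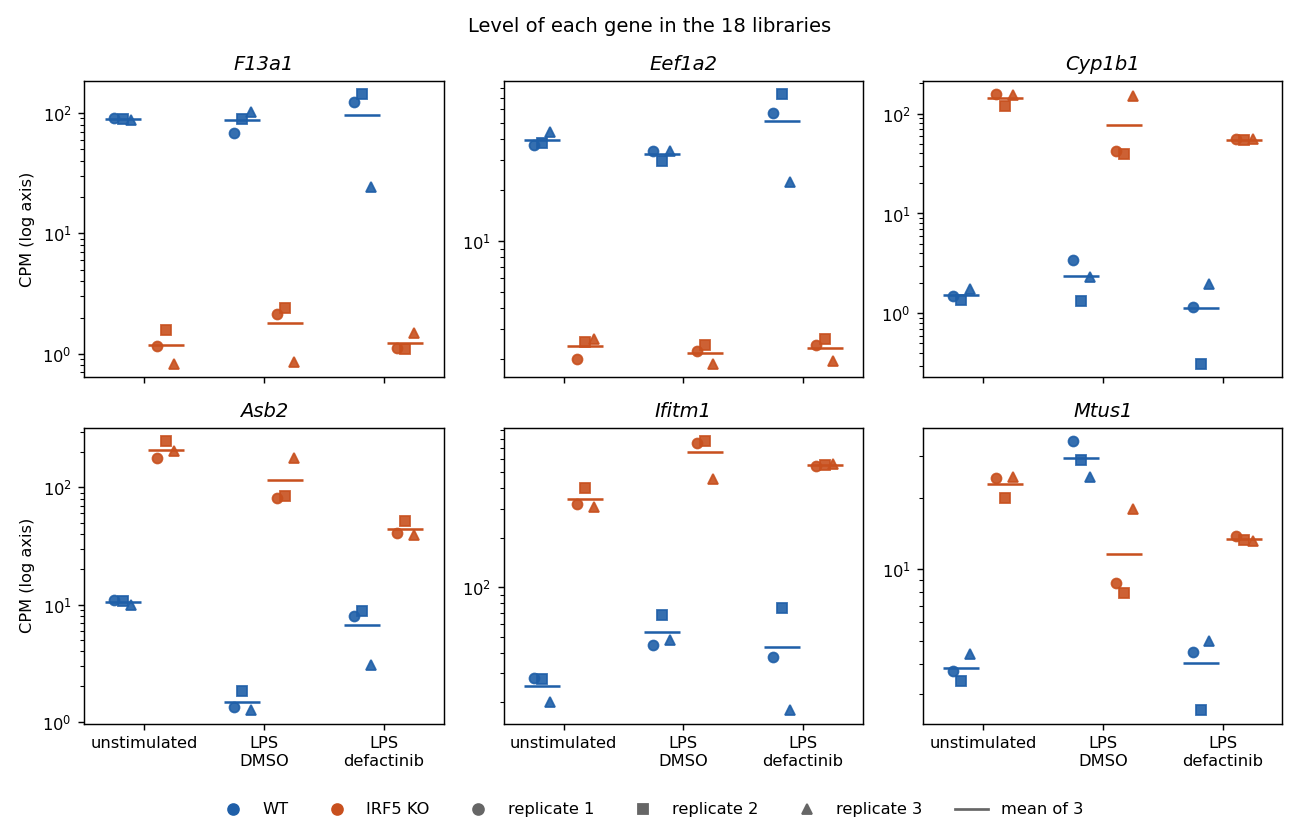
CPM of each gene in every library on a log axis, by treatment, with WT in blue, IRF5 KO in orange, 1 marker shape for each replicate number, and a line at the mean of 3. The colours are apart in every panel and treatment, and the Mtus1 panel is the one in which blue lies above orange after LPS with DMSO and below it elsewhere.

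Per kilobase of exon, the order of the genes differed between the genotypes. In WT unstimulated cells, Ifitm1 (23.1 CPM per kb), F13a1 (22.7) and Eef1a2 (19) were the highest, followed by Asb2 (2.98), Mtus1 (0.382) and Cyp1b1 (0.298). In IRF5 KO unstimulated cells the order was Ifitm1 (313), Asb2 (59.3), Cyp1b1 (27.7), Mtus1 (2.27), Eef1a2 (1.14) and F13a1 (0.303). In WT the libraries of Ifitm1 overlapped with those of F13a1 and of Eef1a2, so the place of Ifitm1 in that order is not resolved, while in IRF5 KO F13a1 and Eef1a2 were the lowest. In these bulk samples, fewer cells of a type and less RNA per cell cannot be told apart.

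The question after LPS was whether the resting gaps held in cells that had been stimulated, with and without defactinib. The rule of selection used the unstimulated libraries, and the gaps after LPS were tested. The 6 genes were chosen with earlier results of these data known, so these tests are not independent of the choice. With DMSO all 6 genes were called, 3 higher in WT (F13a1, Eef1a2 and Mtus1) and 3 lower (Cyp1b1, Asb2 and Ifitm1), where 14% of all tested genes were called higher and 11.8% lower. With defactinib all 6 were called again, 2 higher in WT (F13a1 and Eef1a2) and 4 lower, where 8.45% of all genes were called higher and 8.87% lower. With libraries scaled by their totals alone, without TMM, 38.1% of the calls with DMSO were higher in WT, against 54.4% with TMM, and the 6 genes kept their calls. All but Mtus1 thus kept the direction they had at rest in both treatments, and Mtus1 turned with DMSO. Of all 1145 genes called at rest, 763 (66.6%) were called in the same direction after LPS with DMSO, 687 (60%) with defactinib and 511 (44.6%) in both. Of the 270 genes called with a resting log2 gap beyond 2.5, to which these 6 belong, 169 (62.6%) were called in the same direction in both.

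**Figure D2:**
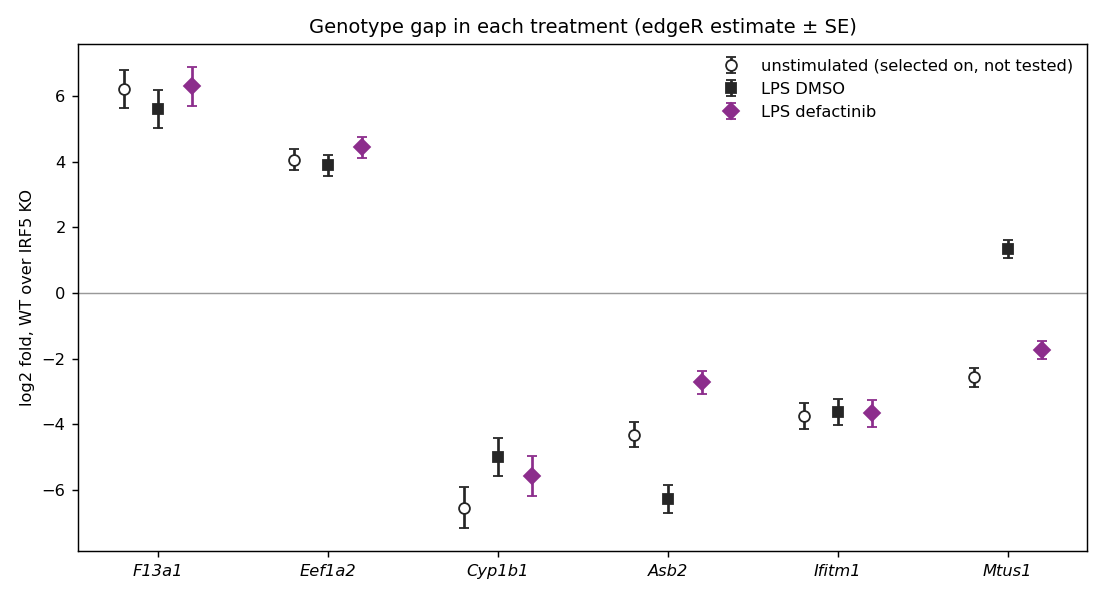
Genotype gap of each gene as log2 fold of WT over IRF5 KO (edgeR estimate ± SE, 3 libraries against 3), for unstimulated cells (open circles, the values that chose the genes), LPS DMSO (squares) and LPS defactinib (diamonds). F13a1, Eef1a2 and Ifitm1 stay within 0.69 of each other across treatments, Asb2 moves from -6.29 to -2.72 with defactinib, and Mtus1 lies above 0 with DMSO alone.

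F13a1 and Eef1a2 stayed higher in WT in all 3 treatments. F13a1 was at 90.8, 88.9 and 87.9 CPM in WT unstimulated cells and at 1.17, 1.58 and 0.826 CPM in IRF5 KO unstimulated cells. After LPS with DMSO it was at 68.1, 88.9 and 102 CPM in WT and 2.13, 2.39 and 0.861 CPM in IRF5 KO. With defactinib it was at 123, 142 and 24.3 CPM in WT and 1.12, 1.10 and 1.49 CPM in IRF5 KO. All WT libraries were above all IRF5 KO libraries, the lowest WT library (defactinib, replicate 3) by 10.2-fold over the highest IRF5 KO library. The log2 gap was 6.22 ± 0.58 (SE, n = 3 per group) at rest. It was 5.61 ± 0.57 after LPS with DMSO (edgeR's quasi-likelihood test with Benjamini-Hochberg adjustment over all 15663 genes, adjusted p = 2.59e-06), a 48.2-fold ratio of mean CPM. With defactinib it was 6.30 ± 0.59 (edgeR, adjusted p = 1.01e-06), a 78.2-fold ratio of means.

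In WT the group means of F13a1 stood at 96.4 ± 63.2 CPM (LPS defactinib), 89.2 ± 1.44 CPM (unstimulated) and 86.4 ± 17.1 CPM (LPS DMSO; SD, n = 3), and these groups overlapped. The 3 IRF5 KO groups overlapped as well, at means of 1.19 to 1.79 CPM. The overlap of 2 of these groups with unstimulated cells came from replicate 3 of WT LPS defactinib and of IRF5 KO LPS DMSO, since the other libraries of these groups, at 123 and 142 CPM and at 2.13 and 2.39 CPM, were above the unstimulated ones. LPS with DMSO differed from unstimulated by -0.05 ± 0.45 (SE) on the log2 scale in WT and 0.57 ± 0.54 in IRF5 KO, untested, and by 0.92 in IRF5 KO without both libraries that stood apart. The difference of defactinib from DMSO after LPS was 0.16 on the log2 scale in WT (95% interval -0.80 to 1.12; edgeR, adjusted p = 0.778) and -0.53 in IRF5 KO (-1.70 to 0.64; adjusted p = 0.595). The interaction of genotype with defactinib was 0.69 (-0.82 to 2.20; edgeR, adjusted p = 0.471). Leaving out WT LPS defactinib replicate 3 alone gave 1.18, which was called (edgeR, adjusted p = 0.04). Without both libraries that stood apart the interaction was 1.51 and was called (edgeR, adjusted p = 0.000207), with 0.62 in WT and -0.89 in IRF5 KO, neither of them beyond the 2-fold threshold.

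Eef1a2 was at 37.1, 37.9 and 43.9 CPM in WT unstimulated cells and 2.01, 2.52 and 2.62 CPM in IRF5 KO unstimulated cells. In LPS DMSO libraries the values were 33.9, 29.6 and 33.9 CPM in WT and 2.23, 2.44 and 1.88 CPM in IRF5 KO. Defactinib libraries held 57.0, 73.3 and 22.3 CPM in WT and 2.42, 2.64 and 1.94 CPM in IRF5 KO. The genotypes did not overlap in any treatment, and the 3 IRF5 KO groups, at means of 2.18 to 2.38 CPM, overlapped with each other. The log2 gap was 4.06 ± 0.32 (SE) at rest, 3.90 ± 0.32 after LPS with DMSO (edgeR, adjusted p = 3.56e-07) and 4.44 ± 0.33 with defactinib (adjusted p = 7.29e-08). As ratios of mean CPM these were 16.6-fold, 14.9-fold and 21.8-fold.

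In WT, Eef1a2 with defactinib differed from DMSO by 0.65 on the log2 scale (95% interval 0.05 to 1.25), which was not called (edgeR, adjusted p = 0.0603). Replicate 3, one of the libraries that stood apart, was the low value of that group. Without it the difference was 1.03 and was called (edgeR, adjusted p = 9.27e-05). In IRF5 KO the difference was 0.11 (-0.56 to 0.77; edgeR, adjusted p = 0.873), and the interaction was 0.54 (-0.35 to 1.44; adjusted p = 0.332). Leaving out WT replicate 3 gave an interaction of 0.94 (edgeR, adjusted p = 0.00469), and leaving out both libraries that stood apart gave 0.99 (adjusted p = 0.000621), each short of the 2-fold limit.

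No other elongation factor gene was called at 2-fold or more between the genotypes after LPS. Eef1a1, the form made in most cells, was at 4079 to 4364 CPM in WT unstimulated and 4105 to 4999 CPM in IRF5 KO unstimulated cells, and its gap was -0.37 after LPS with DMSO (edgeR, adjusted p = 0.053) and -0.03 with defactinib (adjusted p = 0.886). Of 17 tested elongation factor genes, Eef1a2 left out, 0 were called in either genotype gap after LPS by edgeR, and 0 by DESeq2. At an unadjusted p below 0.05 the counts were 11 with DMSO and 6 with defactinib, and at an adjusted p below 0.05 with no limit on size they were 9 and 4, so that none of these passed the 2-fold limit. Their median log2 gap was -0.46 with DMSO and -0.03 with defactinib, against medians of -0.05 and 0.02 over all genes. Of 22 tested coagulation and transglutaminase genes, 6 were higher and 1 lower in WT with DMSO, and 4 higher and 5 lower with defactinib, where 14% and 11.8% of all genes were called with DMSO and 8.45% and 8.87% with defactinib. Tgm2, another transglutaminase, had gaps of 0.14 (edgeR, adjusted p = 0.627) and -0.70 (adjusted p = 0.0246), neither beyond 2-fold. Plaur, the urokinase receptor, and Procr, the protein C receptor, were each higher in WT by 1.25 on the log2 scale with DMSO (edgeR, adjusted p = 7.44e-05 and 0.000111). Serpinb2, an inhibitor of urokinase, went the other way with defactinib, at 15.7 to 87.2 CPM in WT and 605 to 652 CPM in IRF5 KO, a gap of -3.77 (edgeR, adjusted p = 2.76e-05), and had a gap of -0.17 with DMSO (adjusted p = 0.758).

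Cyp1b1, Asb2 and Ifitm1 stayed higher in IRF5 KO in all 3 treatments. Cyp1b1 was at 1.48, 1.35 and 1.75 CPM in WT unstimulated cells and 155, 119 and 152 CPM in IRF5 KO unstimulated cells. LPS with DMSO gave 3.46, 1.33 and 2.31 CPM in WT and 41.7, 39.7 and 149 CPM in IRF5 KO. LPS with defactinib gave 1.16, 0.313 and 1.95 CPM in WT and 55.3, 54.3 and 55.0 CPM in IRF5 KO. The 149 CPM come from the library of IRF5 KO LPS DMSO that stood apart and are close to the unstimulated level. The lowest IRF5 KO library was 11.5-fold above the highest WT library.

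The log2 gap of Cyp1b1 (WT over IRF5 KO, so that a negative value is higher in IRF5 KO) was -6.54 ± 0.62 (SE) at rest. It was -5.01 ± 0.58 after LPS with DMSO (edgeR, adjusted p = 8.17e-06), a 32.4-fold ratio of means, and -4.09 without the library that stood apart (adjusted p = 4.29e-07). With defactinib it was -5.59 ± 0.61 (edgeR, adjusted p = 4.81e-06), a 48-fold ratio of means, and -6.19 without WT LPS defactinib replicate 3 (adjusted p = 1.61e-05). Defactinib differed from DMSO by -1.06 in WT (95% interval -2.29 to 0.17; edgeR, adjusted p = 0.127), where all 3 groups overlapped and stayed at means of 1.14 to 2.37 CPM. It became a called fall without WT LPS defactinib replicate 3 (-1.66), without IRF5 KO LPS DMSO replicate 3 (-1.07) and without both (-1.68; edgeR, adjusted p = 0.00228). In IRF5 KO the difference was -0.48 (-1.50 to 0.53; edgeR, adjusted p = 0.573), and without the library that stood apart it was 0.43. The interaction was -0.58 (-2.17 to 1.01; edgeR, adjusted p = 0.572), and -1.50 and called (adjusted p = 0.0299) without that library. So the Cyp1b1 gap after LPS was called with and without it, while the call of its interaction depended on it.

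Of 19 tested genes of the aryl hydrocarbon receptor list, Cyp1b1 left out, 3 were called with DMSO and 6 with defactinib, all of them lower in WT, where 11.8% and 8.87% of all tested genes were called lower. Cyp1a1, a P450 of the same family and a standard target of the receptor, was at 0.0619 to 0.0846 CPM in WT unstimulated and 1.46 to 1.75 CPM in IRF5 KO unstimulated cells. Its gap was -5.57 with DMSO (edgeR, adjusted p = 3.28e-06) and -4.09 with defactinib (adjusted p = 5.84e-05), at levels that stayed below 2 CPM in every library. Ahr, the receptor itself, was at 114 to 150 CPM in WT and 75.9 to 92.1 CPM in IRF5 KO with DMSO, and at 17.8 to 44.4 CPM and 112 to 116 CPM with defactinib, where its gap of -1.69 was called (edgeR, adjusted p = 6.48e-05). Tiparp, another target and a repressor of the receptor, had a gap of -3.27 with defactinib (edgeR, adjusted p = 1.93e-06) and -0.45 with DMSO (adjusted p = 0.22).

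Asb2 was at 11, 10.7 and 9.98 CPM in WT unstimulated cells and 179, 249 and 203 CPM in IRF5 KO unstimulated cells. Under LPS with DMSO the libraries held 1.34, 1.82 and 1.25 CPM in WT and 81.1, 83.8 and 180 CPM in IRF5 KO. With defactinib it was at 8.05, 8.81 and 3.03 CPM in WT and 40.7, 51.4 and 39.5 CPM in IRF5 KO. The 3 WT groups were apart from each other, in the order unstimulated, LPS defactinib, LPS DMSO. The 180 CPM and the 3.03 CPM belong to the libraries that stood apart. The log2 difference of LPS DMSO from unstimulated was -2.84 ± 0.38 (SE) in WT and -0.87 ± 0.33 in IRF5 KO, given without a test because the unstimulated libraries chose the gene.

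The Asb2 gap was -4.32 ± 0.38 (SE) at rest, -6.29 ± 0.43 after LPS with DMSO (edgeR, adjusted p = 6.85e-08) and -2.72 ± 0.35 with defactinib (adjusted p = 2.7e-05). The ratio of mean CPM was thus 19.9-fold at rest, 78.3-fold with DMSO and 6.62-fold with defactinib. The gaps with DMSO and with defactinib differed by 3.57 ± 0.51 on the log2 scale (edgeR interaction test, adjusted p = 7.35e-05), and by 3.43 without both libraries that stood apart. In WT, Asb2 rose with defactinib by 2.18 ± 0.38 over DMSO (edgeR, adjusted p = 0.000222), a 4.51-fold ratio of means. In IRF5 KO it fell by 1.39 on the log2 scale (SE 0.33; edgeR, adjusted p = 0.039). That fall was called in 7 of 18 fits that each left out 1 library, and leaving out IRF5 KO LPS DMSO replicate 3 gave -0.91, not beyond 2-fold (edgeR, adjusted p = 0.059). Among all genes, 10.4% were called higher and 18.6% lower with defactinib in WT, 0.16% higher and 0.76% lower in IRF5 KO, and 10.5% and 12.3% had an interaction above and below 0.

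**Figure D3:**
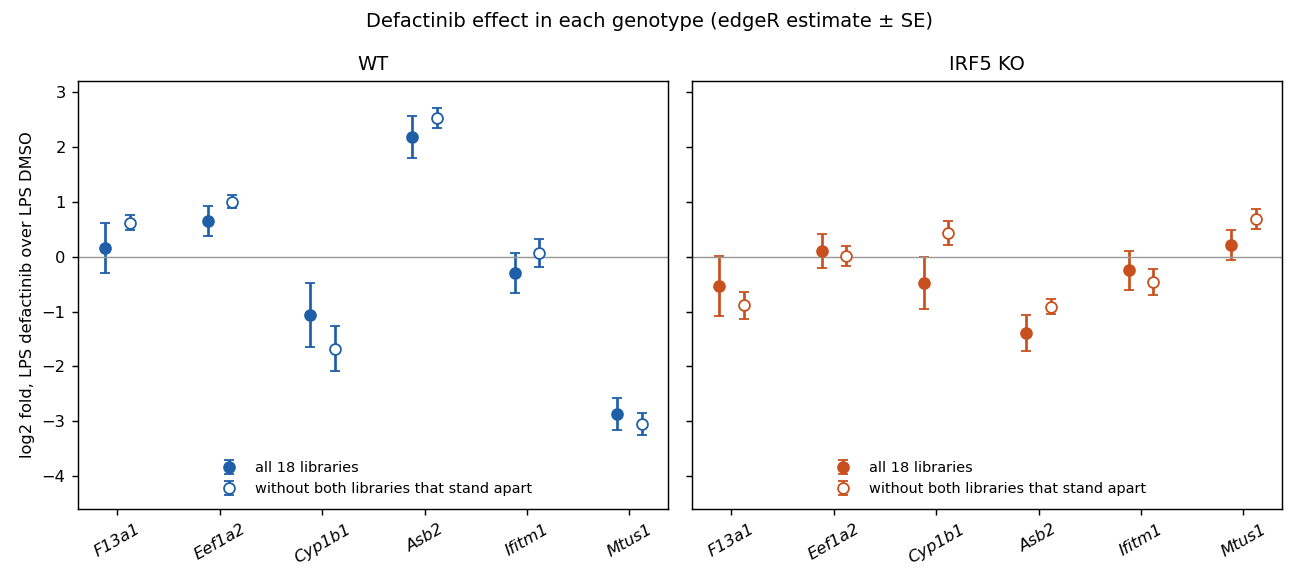
Effect of defactinib after LPS on each gene as log2 fold over DMSO (edgeR estimate ± SE), in WT (left) and IRF5 KO (right), from all 18 libraries (filled) and without both libraries that stood apart (open). Asb2 at 2.18 and Mtus1 at -2.87 are the called values in WT, and Asb2 at -1.39 the called value in IRF5 KO, which is -0.91 and not called in the open symbol. Open symbols of Eef1a2 at 1.00 and Cyp1b1 at -1.68 are called in WT as well.

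Of the 18 tested genes of the ASB family, the Cullin5 ligase and the filamins, Asb2 left out, 2 were higher and 2 lower in WT with DMSO, against 14% and 11.8% of all genes, and 2 higher and 4 lower with defactinib, against 8.45% and 8.87%. Flnc, a filamin, was at 17.3 to 20.7 CPM in WT and 59.2 to 65.2 CPM in IRF5 KO with DMSO, a called gap of -1.70 (edgeR, adjusted p = 1.98e-05). Asb8 was at 29.3 to 30.2 CPM in WT with DMSO and 9.38 to 10.3 CPM with defactinib, a called fall (edgeR, adjusted p = 6.2e-09).

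Ifitm1 was at 28.2, 27.6 and 19.9 CPM in WT unstimulated cells and 321, 399 and 307 CPM in IRF5 KO unstimulated cells. After LPS with DMSO it was at 44.5, 67.9 and 47.7 CPM in WT and 752, 776 and 454 CPM in IRF5 KO. Under defactinib the levels were 37.4, 75.1 and 17.8 CPM in WT and 547, 556 and 560 CPM in IRF5 KO. The LPS DMSO libraries were above the unstimulated libraries of the same genotype, by 1.08 ± 0.37 (SE) on the log2 scale in WT and 0.95 ± 0.36 in IRF5 KO, not tested for the reason given. The gap was -3.76 ± 0.40 (SE) at rest, -3.63 ± 0.40 after LPS with DMSO (edgeR, adjusted p = 5.23e-06) and -3.67 ± 0.40 with defactinib (adjusted p = 4.73e-06). As ratios of means these were 13.6-fold, 12.4-fold and 12.8-fold. The gap with defactinib ranged from -4.33 to -3.27 with 1 library left out, the ends being without WT LPS defactinib replicate 2 and without replicate 3 of that group. Defactinib differed from DMSO by -0.30 in WT (95% interval -1.07 to 0.47; edgeR, adjusted p = 0.497) and -0.25 in IRF5 KO (-1.02 to 0.51; adjusted p = 0.708), with an interaction of -0.04 (-1.13 to 1.04; adjusted p = 0.956). By the interaction estimate, Ifitm1 was the gene of the 6 whose gap differed least between DMSO and defactinib, within an interval that still allows a 2-fold difference. With 1 library left out, the interaction of Ifitm1 ran from -0.68 to 0.37. That of Eef1a2 ran from 0.20 to 0.94, and that of Cyp1b1 from -1.50 to -0.11. These ranges overlap in size, so the place of Ifitm1 is that of the fit of all 18 libraries.

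The other members of the interferon-induced transmembrane family were not alike. Of 5 tested, 1 was higher in WT (Ifitm10) and 2 lower (Ifitm5 and Ifitm6), both with DMSO (14% and 11.8% of all genes were called) and with defactinib (8.45% and 8.87%). Ifitm10 and Ifitm5 were near the floor, at 0.0485 to 1.21 CPM and 0 to 1.99 CPM. Within IRF5 KO LPS DMSO, Ifitm5 ran from 0 to 1.94 CPM. Ifitm3, the relative with the longest shared run, was at 21.6 to 26.3 CPM in WT unstimulated and 194 to 227 CPM in IRF5 KO unstimulated cells. In the LPS DMSO groups Ifitm3 was at 168 to 214 CPM in WT and 290 to 342 CPM in IRF5 KO, a gap of -0.77 (edgeR, adjusted p = 0.293). In the defactinib groups it was at 31.1 to 375 CPM in WT and 275 to 283 CPM in IRF5 KO, so the genotypes overlapped. Ifitm2 was at 11.9 to 13.1 CPM and 24.7 to 28.7 CPM at rest, with gaps of -0.38 and -0.93 after LPS, neither beyond 2-fold. Ifitm6 was at 0.557 to 0.716 CPM in WT and 6.3 to 7.98 CPM in IRF5 KO with DMSO, a gap of -3.38 (edgeR, adjusted p = 2.18e-07). Ifitm7 had no count in any library.

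Mtus1 was the gene whose gap turned. It was at 3.74, 3.40 and 4.41 CPM in WT unstimulated cells and 24.3, 19.9 and 24.5 CPM in IRF5 KO unstimulated cells. LPS with DMSO gave 34.7, 28.8 and 24.5 CPM in WT and 8.77, 7.95 and 17.9 CPM in IRF5 KO. The defactinib libraries were at 4.51, 2.55 and 5.01 CPM in WT and 13.8, 13.3 and 13.2 CPM in IRF5 KO. The genotypes did not overlap in any treatment, but WT was the higher one with DMSO and the lower one otherwise. The WT libraries with defactinib overlapped with the WT unstimulated libraries. The log2 difference of LPS DMSO from unstimulated was 2.93 ± 0.29 (SE) in WT and -0.98 ± 0.27 in IRF5 KO, which differ by 3.91 ± 0.40, not tested because the unstimulated libraries chose the gene.

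The Mtus1 gap was -2.57 ± 0.29 (SE) at rest, 1.34 ± 0.27 after LPS with DMSO (edgeR, adjusted p = 0.000921) and -1.74 ± 0.28 with defactinib (adjusted p = 0.000187). As ratios of means it was 5.95-fold higher in IRF5 KO at rest, 2.54-fold higher in WT with DMSO and 3.33-fold higher in IRF5 KO with defactinib. The 17.9 CPM of IRF5 KO LPS DMSO replicate 3 was near the unstimulated level, and without it the gap with DMSO was 1.81 (edgeR, adjusted p = 1.05e-06). In WT, Mtus1 fell by 2.87 on the log2 scale under defactinib (SE 0.29; edgeR, adjusted p = 1.34e-06). In IRF5 KO the difference was 0.21 (95% interval -0.36 to 0.79; edgeR, adjusted p = 0.674), and 0.68 without both libraries that stood apart. The interaction was -3.08 ± 0.40 (edgeR, adjusted p = 2.57e-05). Of the 1145 genes called at rest, 18 (1.57%) were called in the opposite direction after LPS with DMSO, and 6 of them, Mtus1 included, were called in the resting direction with defactinib.

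Of 17 tested genes of microtubule plus ends and the MTUS family, Mtus1 left out, 1 was called with DMSO, lower in WT (11.8% of all genes were), and 2 were higher and 1 lower with defactinib (8.45% and 8.87% of all genes). Mtus2, the relative of Mtus1, stayed at 0.179 to 1.09 CPM in all libraries, with gaps of -0.15 with DMSO (edgeR, adjusted p = 0.779) and 1.16 with defactinib (adjusted p = 0.0287). Slain1, which promotes microtubule growth, was the gene called lower in WT in both, at gaps of -2.83 and -1.85 (edgeR, adjusted p = 3.22e-05 and 0.00088). Its levels were near the floor, at 0.102 to 0.361 CPM in WT and 0.742 to 1.72 CPM in IRF5 KO libraries. Mapre3, an end-binding protein, had a gap of 1.42 with defactinib (edgeR, adjusted p = 9.96e-07).

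**Figure D4:**
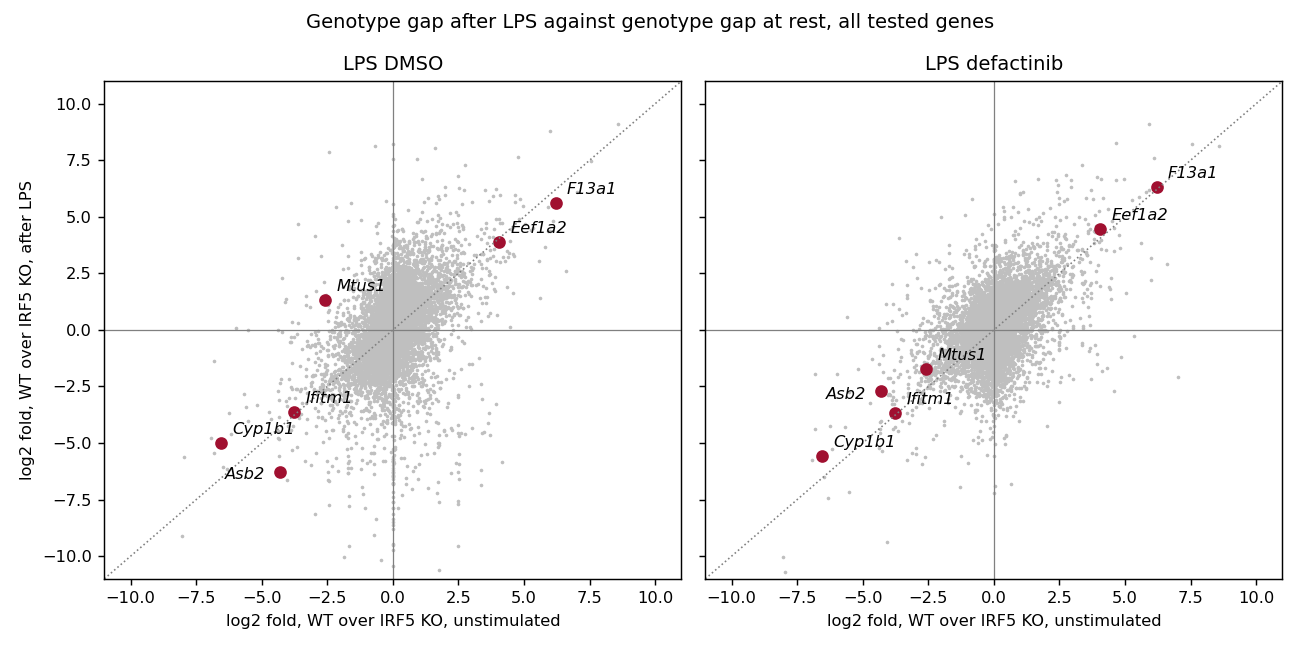
Genotype gap after LPS with DMSO (left) and with defactinib (right) against the gap at rest, as log2 fold of WT over IRF5 KO, with 1 point for each of 15663 tested genes, the 6 genes in red, and a dotted line where both gaps are equal. Mtus1 lies above 0 in the left panel and below it in the right, and the other 5 genes have gaps of 1 sign on both axes of both panels.

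Correlations among the 6 genes follow in part from the selection, since each was chosen for a genotype gap in 6 of the libraries. Over the 18 libraries, log2 CPM of F13a1 and Eef1a2 had a Pearson r of 0.99, and that of F13a1 and Cyp1b1 -0.97. Once the mean of each genotype was subtracted the values were 0.63 and -0.58. Asb2 and Ifitm1 had r = 0.79, and -0.45 within genotypes. Mtus1 had r between -0.48 and 0.57 with the others. All are descriptions over the same libraries, which include those that stood apart.

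The tested genes most like each member over the 18 libraries, among 11822 with a mean of at least 1 CPM, were Myo6 (r = 0.986), Pros1 and Gm20056 (both 0.980) for F13a1. For Eef1a2 they were Spns2 (0.987), Gm20056 (0.986) and Hebp2 (0.982), and for Cyp1b1 Retreg1 (0.983), Gda (0.972) and Mgat4a (0.966). For Ifitm1 they were Avil (0.983), Nmb (0.981) and Itga2b (0.979). With the mean of each genotype subtracted, r was 0.50 to 0.81 for the genes like F13a1, 0.55 to 0.63 for those like Eef1a2, 0.74 to 0.79 for those like Cyp1b1 and 0.80 to 0.87 for those like Ifitm1. Hirip3 (0.968) and Hmces (0.967) were among those most like Asb2, at 0.87 and 0.95 within genotypes, and St8sia4 (0.932), Chst15 (0.929) and Ccl2 (0.908) most like Mtus1, at 0.92, 0.92 and 0.90. The gap of Chst15 was -2.43 at rest, 0.88 with DMSO and -1.06 with defactinib, and that of St8sia4 -2.01, 0.32 and -0.96.

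Genes beside the members on the chromosome were named after their values were seen. Nrn1, the nearest tested gene on 1 side of F13a1, was called higher in WT after LPS, with gaps of 3.79 with DMSO and 4.61 with defactinib, and 3.91 at rest. Ly86, on the other side of F13a1, had gaps of 0.21, -0.13 and 0.02. Pdgfrl, beside Mtus1, was called lower in WT in both LPS treatments, at -1.53 and -2.70, and so did not turn with Mtus1. Beside Cyp1b1, a gene with no symbol here (chr17:79626677-79628681) was called lower in WT at -4.15 and -2.19, and Atl2 was called with defactinib at -1.17. Beside Asb2, Btbd7 was called with DMSO, higher in WT, and Otub2 with defactinib at -1.12. The neighbours of Eef1a2 (Col20a1 and Ppdpf) and of Ifitm1 (Ifitm2 and Gm7514), and Pcm1 beside Mtus1, were not called.

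Cell type markers were summed in each library. The summed level of 12 neutrophil markers was at most 270 CPM in WT unstimulated and 1091 to 1707 CPM in IRF5 KO unstimulated cells, 326 to 420 and 1178 to 1718 CPM with DMSO, and 343 to 470 and 2538 to 2723 CPM with defactinib. Mmp8 made up most of that sum, at 169 to 205 CPM in WT unstimulated and 1001 to 1620 CPM in IRF5 KO unstimulated cells, while S100a8 was at 23.6 to 31.8 and 25.1 to 31.6 CPM and Mpo, Elane and Ctsg stayed below 1 CPM in every library. Of 10 neutrophil markers tested, 4 were called with DMSO and 1 with defactinib, all lower in WT, where 11.8% and 8.87% of all genes were called lower. Dendritic cell markers summed to 5984 to 6143 CPM in WT unstimulated and 4345 to 4736 CPM in IRF5 KO unstimulated cells, 6746 to 7832 and 5585 to 6541 CPM with DMSO, and 4925 to 5498 and 5476 to 5941 CPM with defactinib. Of 12 tested, 4 were higher and 1 lower in WT with DMSO, and 2 higher and 3 lower with defactinib. The shares of all genes called higher and lower were 14% and 11.8% with DMSO, and 8.45% and 8.87% with defactinib. Of the 8 progenitor and megakaryocyte markers, 3 were tested and 2 of them were lower in WT in both LPS treatments (11.8% and 8.87% of all genes were), among them Cd34, at 3.04 to 3.91 CPM in WT and 19.6 to 32.6 CPM in IRF5 KO with DMSO. Mast cell and basophil markers summed to 138 to 144 CPM in WT unstimulated and 104 to 117 CPM in IRF5 KO unstimulated cells, with Slc6a4 at 46.2 to 49.4 and 3.98 to 5.43 CPM, and Mcpt4 and Tpsab1 at 0 in all libraries. Of 9 of these markers tested, 1 was higher (Slc6a4) and 2 lower in WT with DMSO, with a median gap of -0.53, opposite in sign to that of Slc6a4, and 2 were higher and 1 lower with defactinib, with a median of -0.07. Of all genes, 14% were higher and 11.8% lower with DMSO, and 8.45% and 8.87% with defactinib. The neutrophil sum was higher in every IRF5 KO library than in any WT library, as was the level of Cyp1b1, Asb2 and Ifitm1, and its part in the gaps was not tested. Stromal and endothelial markers, 6 of 12 of them tested, summed to 47.9 to 57 CPM in WT unstimulated and 31.2 to 32.9 CPM in IRF5 KO unstimulated cells, 59.9 to 81.1 and 23.3 to 30.2 CPM with DMSO, and 50.3 to 68.1 and 29.5 to 31.9 CPM with defactinib. Of these 6, 4 were higher in WT with DMSO and 1 with defactinib, with median gaps of 1.99 and 0.99, against 14% and 8.45% of all genes called higher. Of 11 monocyte markers, 4 were higher and 3 lower in WT with DMSO, and 3 higher and 3 lower with defactinib, against 14% and 11.8% of all genes with DMSO and 8.45% and 8.87% with defactinib. The macrophage sum was 19278 to 20219 CPM in IRF5 KO LPS defactinib cells, above the libraries of every other group. The part of these lists in the gaps was not tested.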

How the data were processed

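RNA-seq libraries of BMDMs from WT and IRF5 KO mice (18 libraries, 3 per group) were grouped by their labels. The deposited table holds raw counts of read pairs per gene. According to the methods and the header of the table, the authors aligned reads to mm10 with STAR, allowing 2 mismatches, and counted uniquely mapped pairs over exons with featureCounts 1.6.3, by strand. Of 50600 gene IDs, 50376 had a symbol in GENCODE and 24142 had no count. No row lacked a gene name.

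Counts were normalised by TMM and fitted with edgeR 4.0.16 (R 4.3.3), with filterByExpr, 1 mean per group over all libraries and a robust quasi-likelihood F test, two-sided. P-values were adjusted over 15663 genes, and genes were called at FDR below 0.05 and a fold change beyond 2, the authors' thresholds. CPM use the TMM library sizes, and log2 CPM a prior count of 2. Tested were the genotype gaps after LPS, the effect of defactinib in each genotype and their interaction. The resting gap and changes from rest are given without p-values, because the unstimulated libraries chose the genes. The 6 genes, the 6 family lists and the 9 marker lists were chosen with earlier results of these data known. Named beside the members are, by rule, Irf5, Egr1, Tnf, the 3 genes most correlated with each member, a paralog fixed for it, up to 3 called genes of its list with the highest mean level, and the 2 highest genes of each marker list. Some results under this rule are not reported here.

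The fit was tested on simulated data. Alternatives were size factors of DESeq2 in edgeR, totals without TMM, no filter or one of 5 CPM in 3 libraries, DESeq2 1.42.0 itself, a replicate block, a fit of the compared groups, leaving out each library and, chosen after seeing the data, leaving out both libraries that stood apart. Promoters come from RefSeq (GRCm38.p6), and open frames from GENCODE transcripts. Neither intervals nor p-values cover differences between animals that the labels do not name.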

Additional observations from a re-analysis of the deposited data

Results flagged for a closer look

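Mtus1 and Asb2 were picked out because their genotype gaps differed between treatments. For Asb2, the log2 gap of WT over IRF5 KO with defactinib exceeded that with DMSO after LPS by 3.57 in the interaction test (edgeR, adjusted p = 7.35e-05), with the 3 WT libraries higher and the 3 IRF5 KO libraries lower with defactinib. For Mtus1 the same difference was -3.08 (edgeR, adjusted p = 2.57e-05), with all 3 WT libraries lower with defactinib. The Mtus1 gap after LPS with DMSO exceeded the gap at rest by 3.91, since every WT library was higher and every IRF5 KO library lower after LPS than at rest. That difference was not tested, because the unstimulated libraries chose the gene.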

How the results depend on the processing

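The 12 genotype gaps of the 6 genes after LPS kept their direction and call in all 312 values from 26 alternative settings, 216 of them with 1 library left out. Mtus1 was thus higher in WT with DMSO in every setting, at 1.05 to 1.81. The effects of defactinib were less stable. In WT the number of genes called was 2, and 2 to 4 with 1 library left out. It was 4 without WT LPS defactinib replicate 3 and 4 without both libraries that stood apart, Eef1a2 and Cyp1b1 joining Asb2 and Mtus1. In IRF5 KO it was 1 (Asb2), and 0 with no filter, 0 with the replicate block, 0 in a fit of the compared groups, 0 without both libraries and 0 to 1 with 1 library left out. For the interaction it was 2, and 4 without both libraries, with F13a1 and Cyp1b1 added. Leaving out WT LPS defactinib replicate 3 alone added F13a1 (1.18), and leaving out IRF5 KO LPS DMSO replicate 3 alone added Cyp1b1 (-1.50). The cause was not tested.

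The signs that turned belong to values that were not called. The defactinib effect on F13a1 in WT (0.16) was -0.01 with the replicate block and -0.24 to 0.64 with 1 library left out. That on Ifitm1 in WT (-0.30) was 0.07 without both libraries and -0.95 to 0.11 with 1 left out. In IRF5 KO, Eef1a2 (0.11) was -0.02 by library size alone, Cyp1b1 (-0.48) was 0.43 without both libraries and -0.81 to 0.43 with 1 left out, and Mtus1 (0.21) was -0.01 to 0.68. The Ifitm1 interaction (-0.04) was 0.27 by library size alone, 0.07 with a filter of 5 CPM, 0.54 without both libraries and -0.68 to 0.37 with 1 left out. A pair of untested changes from rest also turned, LPS in WT for F13a1 (-0.05, from -0.18 to 0.10) and its genotype difference for Ifitm1 (0.13, -0.08 without both libraries, from -0.10 to 0.24 with 1 left out).

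The replicate numbers were not taken as pairs, since libraries with the same number had a median correlation of residuals of 0.00455 over 45 such pairs, above 0.1 in 4. The replicate block changed no call of the 6 genes except Asb2 with defactinib in IRF5 KO, which was -1.42 (edgeR, adjusted p = 0.0538) with the block and -1.39 (adjusted p = 0.039) without it. Over all genes, the defactinib calls in IRF5 KO were 144, against 79 with no filter, 82 with the block, 9 in a fit of the compared groups, 517 by DESeq2, 361 without both libraries and 20 to 891 with 1 library left out, and those of the interaction 3568, against 5467 without both libraries. With a filter of 5 CPM, which tests fewer genes, calls fell from 4036 to 2303 (gap with DMSO), 2712 to 1616 (gap with defactinib) and 4552 to 2833 (defactinib in WT). Library size alone shifted the median of all genes by -0.25 in the gap with DMSO and 0.33 in the interaction, and moved the share of calls above 0 from 46.2% to 69% in the interaction and from 35.9% to 49.2% for defactinib in WT. The 3 libraries per group limit the precision of every value.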
